A study of Mus musculus with 2 samples.

Results

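A set of 10 chemokine genes linked to the colonic epithelium, 9 CC chemokines and the CX3C chemokine fractalkine, was measured in CMT93 cells. The genes are Ccl2, Ccl7, Ccl5, Ccl6, Ccl9, Ccl17, Ccl20, Ccl25, Ccl28 and Cx3cl1, and every non-control probe carrying one of these names on the array was used. They make up 10 of 34761 gene or array names, 13 of 55681 probes and 22 of 59305 spots. The probes were 60 bases long.

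CMT93 is an established mouse carcinoma line, a single line that the labels place in the rectum and give the strain C57BL/ICRF and the age 19 months. Total RNA was measured on 2 one-colour Agilent arrays, 1 of LPS-stimulated cells and 1 of control cells. LPS (lipopolysaccharide, a glycolipid of the outer membrane of Gram-negative bacteria) was given at 3 µg/mL for 24 h. Since the labels carry 1 treatment text on both samples, control cells were taken to be untreated by their title. The labels give no genetic change in either group, and both groups were grown in DMEM.

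CC chemokines are small secreted proteins that draw leukocytes along a gradient by binding G protein-coupled receptors of the CCR family. Fractalkine is made as a membrane protein on a mucin-like stalk, holds cells that carry CX3CR1, and becomes a soluble attractant once proteases cut it from the surface. In the gut, epithelial cells make both inflammatory chemokines that call monocytes and T cells and homeostatic chemokines that place lymphocytes and antibody-secreting cells in the mucosa.

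With 1 array per group there is no replicate check and no test, and genes are described by the size of their difference, a 2-fold difference being the size at which they are counted. Signals are the processed intensity in arbitrary units. Differences are LPS minus control on the log2 scale after each array's 75th percentile (629 on the LPS array and 649 on the control array) was subtracted, so they differ slightly from the ratio of the printed signals. The error after ± is the SD between spots of probes printed 10 times that were nearest in mean brightness over both arrays, and covers the slide alone. The dimmest genes, Ccl5 and Ccr10 among them, share the value 0.14 from the dimmest of those probes. It may be too small for genes dim on 1 array. For Ccl2 it would be 0.055, against 0.098 over its own spots, which is the error given for Ccl2. The arrays may have shared a slide and a scan. Of all spots, 54.7% on the LPS array and 55.8% on the control array were well above background, and no spot was saturated. Fewer cells with a transcript and less of it per cell cannot be told apart in such RNA.

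Of the 10 chemokine genes, the LPS array showed 8 well above background and the control array 6, against 60.7% of all genes on the LPS array and 61.5% on the control array. Of the 10, 6 were measured, meaning well above background on both arrays, as were 20380 of all 34761 genes. In LPS-treated cells alone 2 were well above background, as were 1.86% of all genes. Ccl20 and Ccl28 were well above background on neither array, as were 12732 of all 34761 genes. Of the 6 measured genes, Ccl2 and Cx3cl1 were at least 2-fold higher in LPS-treated cells, a size reached by 1.46% of all measured genes, and none was at least 2-fold lower, a size reached by 0.569%. Ccl5, Ccl9, Ccl6 and Ccl25 differed by less than 2-fold. At 1.5-fold, Ccl5 and Ccl9 joined the higher genes, making 4 of 6 against 3.59% of all measured genes, and none was lower, against 2.65%. Ccl5 passed at 1.54-fold with a signal close to the lowest well above background, and fell to 1.15-fold under another way of processing. At 4-fold Ccl2 alone was higher, against 0.383%, and none was lower, against 0.0834%. The median difference over the 6 was 0.73, against -0.02 over all 20380 measured genes.

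**Figure D1:**
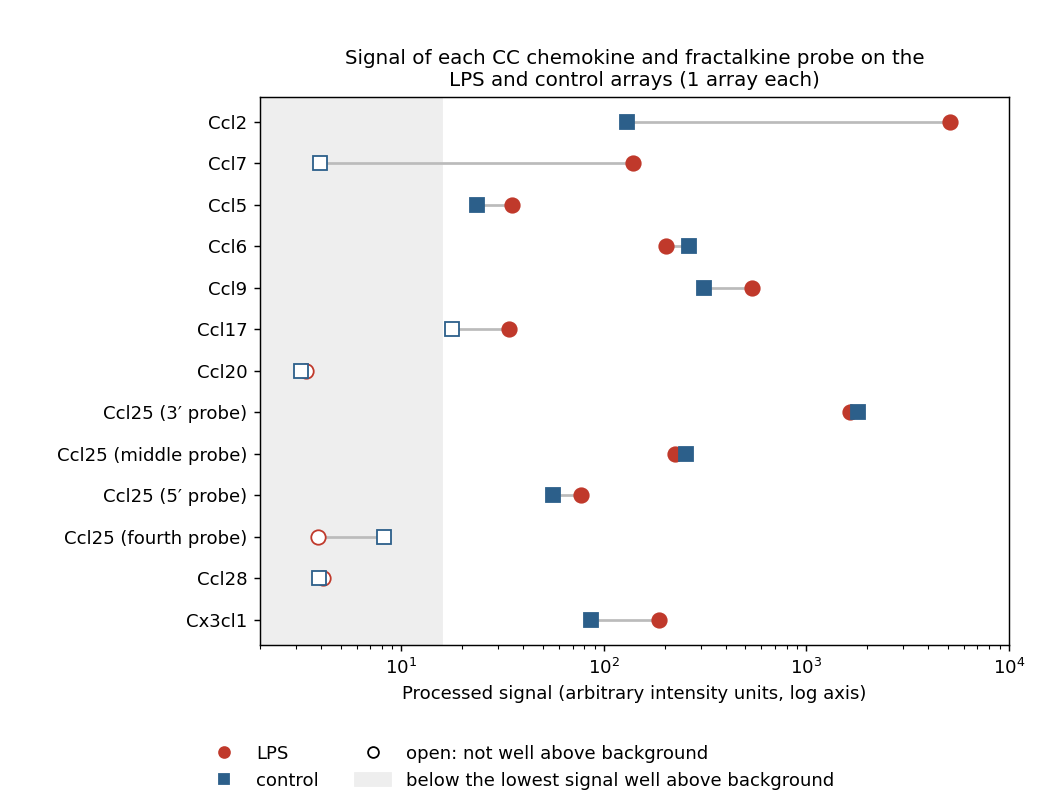
Processed signal (log axis, arbitrary intensity units) of each of the 13 probes on the LPS array (red circles) and the control array (blue squares), with open symbols for a probe not well above background. Ccl2 has the widest gap, 5129.9 on the LPS array against 129 on the control array, Ccl7 and Ccl17 are open on the control array alone, and Ccl20, Ccl28 and the fourth Ccl25 probe are open on both.

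Markers of the labelled cell type were present on both arrays. Of 13 colonic epithelial markers, 12 were measured on both arrays, and all 12 were below 0, with a median of -0.25. Among all 20380 measured genes, 11291 were below 0, with a median of -0.02. Of the 12, 1 was at least 2-fold lower, against 0.569% of all measured genes, and none was higher, against 1.46%. The markers had summed signals of 679417 on the LPS array and 813746 on the control array. Lgals4 (galectin 4) was lowest at -1.45 ± 0.03 and Krt20 stood at -0.92 ± 0.12, while Krt18 at -0.14 ± 0.03 and Cdh1 (E-cadherin) at -0.01 ± 0.03 were highest. The intestinal factor Cdx2 was not well above background on either array. Among 15 leukocyte markers 6 were measured, between -0.18 and 0.30, with summed signals of 12006.5 on the LPS array and 11612 on the control array. The brightest Itgam probe gave most of these sums, with 7780 on the LPS array and 7516 on the control array. The other Itgam probes had 40.1 and 26.0 on the LPS array and 48.2 and 36.2 on the control array. The brightest Csf1r probe had 1587 on the LPS array and 1575 on the control array. For Cd68 these signals were 1273 with LPS and 1064 in control cells, and for Cd3e 1117 with LPS and 1149 in control cells. Fcer1g at -0.18 and Cd3e at 0.01 were lowest, and Cd68 at 0.30 and Cd79a at 0.13 were highest. Ptprc, which encodes the pan-leukocyte protein CD45, was detected in control cells only, and its bound was at least 3.03-fold lower in LPS-treated cells. Itgax (CD11c) was likewise detected in control cells only, at least 1.92-fold lower with LPS. The macrophage marker Adgre1 (F4/80) went the other way, with 30.3 on the LPS array and 11.6 on the control array, where it was not well above background, and was at least 1.96-fold higher. The other Adgre1 probe was not well above background on either array. Of all genes detected in control cells only, 18.8% had a bound of at least 2-fold, and of those detected in LPS-treated cells only, 45%. Cd3d, Ms4a1, Lyz2, Tyrobp and Laptm5 were among those above background on neither array. Of 10 stromal and endothelial markers 4 were measured, with Col1a2 highest at 0.91 ± 0.14, Col1a1 at 0.33, Kdr at 0.05 and Pecam1 at 0.00. Their list had summed signals of 5715 on the LPS array and 5669 on the control array. Most of these sums came from a Kdr probe, with 5362 on the LPS array and 5359 on the control array. The other Kdr probe had 4.10 on the LPS array and 4.42 on the control array, not well above background on either. Pdgfra had 4.41 on the LPS array, not well above background, and 34.6 on the control array, at least 1.96-fold lower with LPS. The part of these markers in the chemokine differences was not tested.

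The monocyte attractants were the members that differed most. Ccl2 (MCP-1) and Ccl7 (MCP-3) both bind CCR2, the receptor that brings inflammatory monocytes out of the blood. The opening bases of their probes are shown with G and C in capitals, because base composition bears on how brightly a probe hybridizes. The Ccl2 probe lies on the plus strand of mm9 at chr11:81850650-81850709 and the Ccl7 probe at chr11:81860656-81860715, and the first 30 bases of each are given.
Ccl2: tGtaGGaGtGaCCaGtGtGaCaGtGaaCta
Ccl7: ttCtGaGaaCtGttGatGaaatGtGttGat

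Ccl2 was printed in 10 spots on each array. On the LPS array its 10 spots ranged from 4818 to 5291 with a median of 5177, and on the control array from 114 to 148 with a median of 130. No spot of one array came near those of the other. Their means were 5129.9 ± 146 on the LPS array and 129 ± 9.05 on the control array (SD over 10 spots). Ccl2 was thus 41.0-fold higher, a log2 difference of 5.36 ± 0.10 over its own spots, with single spots between 5.18 and 5.54. Ordered from the highest difference, it ranked 9 among the 20380 measured genes, and under the other ways of processing it stayed between 4.79 and 5.39.

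Ccl7 had a signal of 138 on the LPS array and of 3.96 on the control array, where it was not well above background. It has 1 spot. Against the lowest signal that counted as well above background on the control array, Ccl7 was at least 8.97-fold higher in LPS-treated cells, and the lowest bound under the other ways of processing was 2.61-fold, with normexp. Of 646 genes detected in LPS-treated cells alone, 45% had a bound of at least 2-fold. The receptor gene for both proteins, Ccr2, was not well above background on either array.

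Ccl5, Ccl9 and Ccl6, whose receptors include CCR1, differed less and in both directions. Ccl5 (RANTES), which draws T cells and monocytes, had a signal of 35.1 on the LPS array and 23.6 on the control array. That is 1.54-fold higher, at 0.62 ± 0.14. Its signal lay close to the lowest that counted as well above background (16.9 on the LPS array and 15.9 on the control array), and its difference spanned 0.20 to 0.67 across the ways of processing. Ccl9, a rodent chemokine that acts through CCR1, had signals of 539 on the LPS array and 311 on the control array, 1.79-fold higher at 0.84 ± 0.07. Ccl6, another rodent CCR1 ligand and the neighbour of Ccl9 on chromosome 11, had 203 on the LPS array and 263 on the control array. It was 1.26-fold lower, at -0.33 ± 0.09, and it and Ccl25 were the measured members below 0. Ccl9 stayed between 0.73 and 0.89 and Ccl6 between -0.34 and -0.27 under every way of processing that was run. Ccr1 was not well above background on either array.

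Fractalkine was the other member past 2-fold. The Cx3cl1 probe lies on the plus strand of mm9 at chr8:97306185-97306244, and its first 30 bases are shown in the same way.
Cx3cl1: tCCCaGaGCaGaatGtGGGCCGtaaCaatC

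Cx3cl1 had a signal of 187 on the LPS array and 85.9 on the control array, 2.24-fold higher at 1.16 ± 0.12. Under normexp, which models the local background, it was 1.75-fold higher at 0.81, below 2-fold. The genes for the enzymes that release it from the membrane differed little. Adam10, the sheddase of resting cells, had 13786 on the LPS array and 13829 on the control array, a difference of 0.04 ± 0.03 that was -0.01 under one other way of processing. Adam17, the sheddase of stimulated cells, had 150 on the LPS array and 131 on the control array, at 0.24 ± 0.11. The receptor gene Cx3cr1, and the genes of the chemokine-trimming proteases Dpp4, Ctss, Mmp2 and Mmp9, did not stand well above background on either array.

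Among the lymphocyte attractants, no gene was both measured on the 2 arrays and at least 2-fold different. Ccl17 (TARC), which binds CCR4 on T helper and regulatory T cells, had a signal of 33.9 on the LPS array and 17.7 on the control array, where it was not well above background. Its control signal was above the lowest that counted as well above background there, 15.9. The bound was therefore the plain difference between the arrays, 1.98-fold higher, and not a lower limit. Ccl17 lay between 1.23-fold and 2.03-fold under the other ways of processing. Its receptor gene Ccr4 was not well above background on either array.

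Ccl25 (TECK), the CCR9 ligand that guides T cells and IgA-secreting cells to the small bowel, was the one member with several probes. All 4 lie on the plus strand of chromosome 8 in mm9, and 3 were measured. The probe nearest the 3′ end, at chr8:4359916-4359975, had signals of 1650 on the LPS array and 1792 on the control array, a difference of -0.07 ± 0.05. The middle probe, at chr8:4348678-4348737, had 224 with LPS and 255 in control cells, at -0.14 ± 0.09. The probe nearest the 5′ end, at chr8:4327833-4327892, is listed under a non-coding transcript record and had 77.2 with LPS and 55.8 in control cells, at 0.51 ± 0.14. The fourth, at chr8:4357861-4357920, had 3.87 with LPS and 8.19 in control cells and was not well above background on either array. The 2 brighter probes thus lay just below 0 and the 5′ probe above it, and all 3 kept their sign under the other ways of processing, with the 5′ probe between 0.23 and 0.59. Ccr9 was not well above background on either array.

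A further 3 probes of the array are named for a long non-coding interval at chr8:4325209-4348788 that takes in the 5′ and middle Ccl25 probes, and were looked at after the Ccl25 values were seen. Their differences were -0.16, -0.13 and -0.17. The last of them has the same 60 bases as the middle Ccl25 probe, with signals of 230 on the LPS array and 268 on the control array. These 2 prints of a single sequence, -0.14 and -0.17, differed by less than their spot SD.

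Ccl20 and Ccl28 are the best-known attractants of the colonic epithelium, Ccl20 for CCR6-bearing Th17 cells, B cells and dendritic cells and Ccl28 for CCR10-bearing antibody-secreting cells. Neither was detected. Ccl20 had signals of 3.39 on the LPS array and 3.19 on the control array, and Ccl28 had 4.10 on the LPS array and 3.91 on the control array. All 4 values are substitutes that the scanner software gives to spots not above background, so they have no order. The values of Ccl7 in control cells and of the fourth Ccl25 probe with LPS are substitutes too. Each has 1 probe, Ccl20 at chr1:83115682-83115741 on the plus strand and Ccl28 on an unplaced sequence of chromosome 13 in mm9. The first 30 bases of both show how few G and C letters the Ccl20 probe holds.
Ccl20: ttttCttataaaaCaGaaaaGaattataaG
Ccl28: GttaCtataCCaCaaGttaCttaaaGtaCt

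Over its 60 bases the Ccl20 probe was 16.7% G and C, and the Ccl28 probe 35%. Only 50 probes, 0.0898% of those on the array, were as low as the Ccl20 probe. Of these 50, 18% stood well above background on the LPS array and 20% on the control array, against 54.0% and 55.1% of all probes on the LPS and control arrays. Among probes of the Ccl28 probe's composition the shares were 54.0% on the LPS array and 54.5% on the control array. The part of base composition in the missing Ccl20 signal was not tested. Of the receptors, Ccr6 was not well above background on either array, while Ccr10 had 34.5 on the LPS array and 20.3 on the control array, at 0.81 ± 0.14 and between 0.25 and 0.86 under the other ways of processing.

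**Figure D2:**
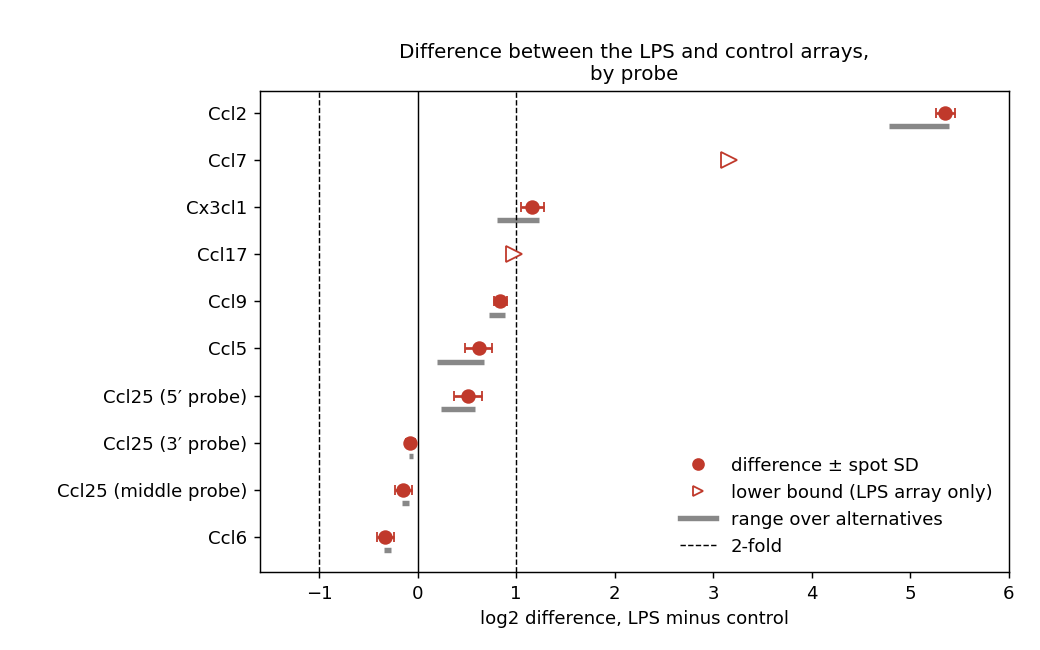
Difference in log2 signal, LPS minus control, for the 10 probes above background on at least the LPS array, ordered by size. Dots with bars give the difference ± the SD between spots, and grey bars the range over the other ways of processing. Open triangles give a lower bound, which for Ccl17 is its plain difference. Ccl2 at 5.36 stands apart from Cx3cl1 at 1.16, and the Cx3cl1 range crosses the dashed line at 2-fold.

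Few receptor genes were detected. Of 13 CC, XC and CX3C receptor genes 3 were measured, against 20380 of all 34761 genes. Of the 3, 1 was at least 2-fold higher and none lower, with a median of 0.81. Among all measured genes 1.46% were at least 2-fold higher and 0.569% lower. Ccr8, a T cell receptor for Ccl1 and, in mouse, Ccl8, had 130 on the LPS array and 62.5 on the control array, at 1.11 ± 0.13, but 0.61 under normexp. Its other probe had 4.26 with LPS, a substitute value, and 30.4 in control cells. That probe was detected in control cells only, with a bound of at least 1.74-fold lower, so the 2 probes pointed opposite ways. Ccr7 had 82.8 on the LPS array and 135 on the control array, at -0.66 ± 0.13. The other 10 receptor genes, Ccr3 among them, did not stand well above background on either array. Among 6 genes listed as atypical receptors, 3 were measured and none reached 2-fold. Ackr3 was at 0.07, Ccrl2 at -0.13 (0.02 under one other way of processing) and Pitpnm3 at -0.55.

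Another 12 CC and XC chemokine genes had a probe and 4 of them were measured, against 20380 of all 34761 genes. Their median was -0.05. While 1.46% of all measured genes were at least 2-fold higher and 0.569% lower, of these 4 genes 1 was higher and none lower. That gene was Ccl8 (MCP-2), with 256 on the LPS array and 89.1 on the control array, 2.96-fold higher at 1.57 ± 0.11. The epithelial chemokine gene Ccl27a, a relative of Ccl28, had 1631 on the LPS array and 2098 on the control array, at -0.32 ± 0.04, and its other 2 probes were at -0.50 and -0.34. Ccl19 was at 0.11 and Ccl1 at -0.20. The other 8, Ccl3, Ccl4, Ccl11, Ccl12, Ccl22, Ccl24, Ccl26 and Xcl1, did not stand well above background on either array.

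The chemokine genes lie in clusters, and the members were set among their neighbours by the mm9 positions of the probes. In the first cluster on chromosome 11, which spans 140 kb and held 6 genes on the array, Ccl7 lay 10 kb from Ccl2 and Ccl8 lay 79.5 kb from it. These 3 genes were higher on the LPS array. Between them, Ccl11 (eotaxin) had 3.52 on the LPS array and 3.34 on the control array. Ccl12 had 8.28 on the LPS array and 4.19 on the control array. Neither was well above background, though Ccl12 passed the looser positive and significant flag on the LPS array alone. Ccl1, at the far end, was at -0.20 ± 0.14. In the second cluster on the same chromosome, which spans 139 kb, Ccl9 and Ccl6 lay 48.9 and 62.7 kb from Ccl5 and had opposite signs. Beyond them the macrophage inflammatory protein genes Ccl3 and Ccl4 were well above background on neither array, with 8.27 and 4.02 on the LPS array and 3.68 and 3.86 on the control array. Ccl3 too passed the looser flag on the LPS array alone. On chromosome 8, over 61.1 kb, Cx3cl1 lay between Ccl22, with 3.64 on the LPS array and 3.46 on the control array, and Ccl17. The values of Ccl11, Ccl4 and Ccl22 on both arrays and of Ccl12 and Ccl3 on the control array are substitutes without order.

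**Figure D3:**
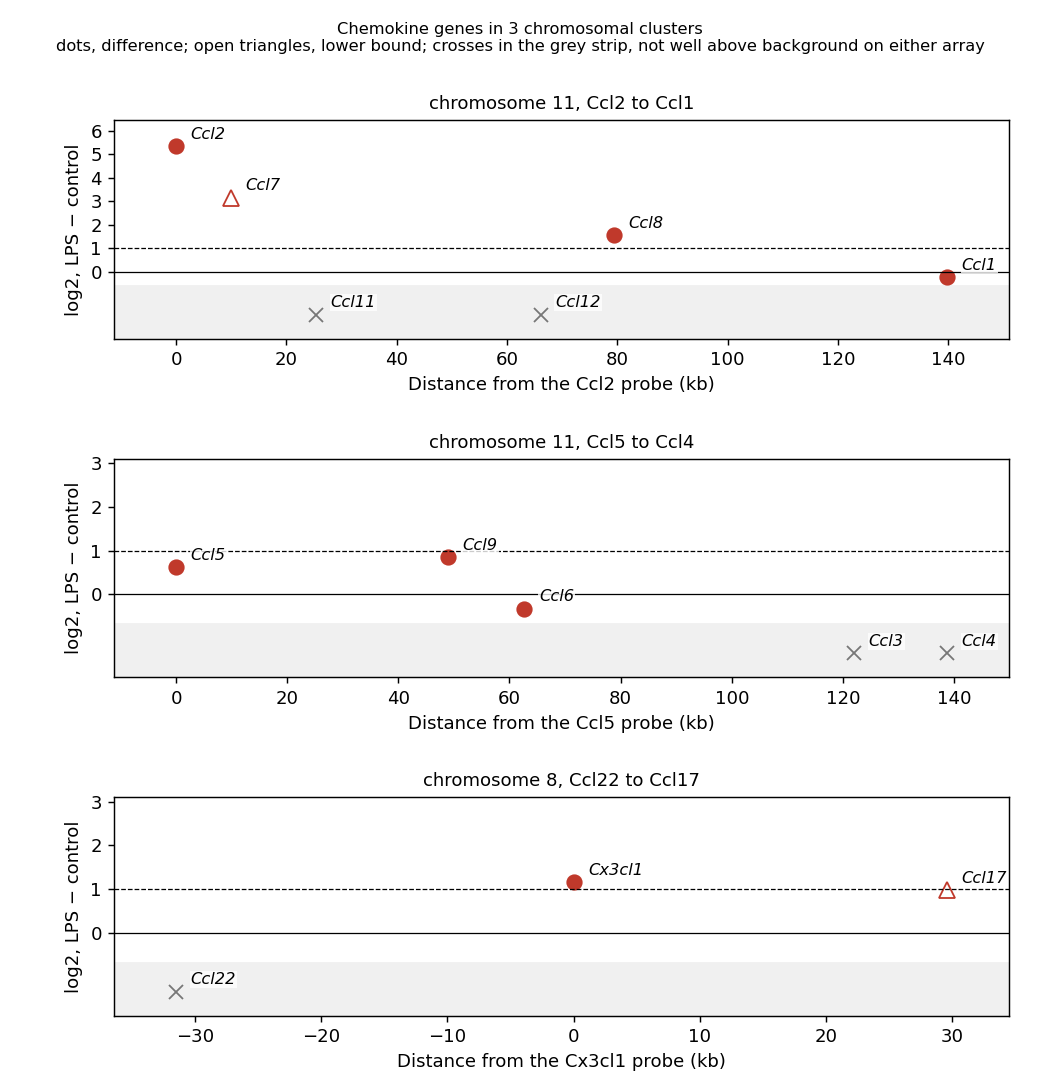
Difference in log2 signal, LPS minus control, of the chemokine genes in 3 clusters against the distance in kb of each probe from Ccl2, Ccl5 or Cx3cl1. Dots are measured genes, crosses in the grey strip genes not well above background on either array, and the dashed line 2-fold. Open triangles are lower bounds, which for Ccl17 is its plain difference. Ccl2, Ccl7 and Ccl8 lie above 2-fold, and between them are Ccl11 and Ccl12, not well above background on either array.

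The longest run of bases that a member's probe shares with a probe of another CC, XC or CX3C chemokine gene was 7 to 9 of 60 bases. Probes of CXC chemokine genes were not compared.

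Among genes that act on chemokine transcripts or on NF-kB, several differed by more than 2-fold. Of 9 genes for chemokine mRNA decay and NF-kB feedback all 9 were measured, 4 at least 2-fold higher and none lower, with a median of 0.69. Among all measured genes 1.46% were at least 2-fold higher and 0.569% lower. Zc3h12a, whose product Regnase-1 cleaves the transcripts of cytokines, had 585 on the LPS array and 33.2 on the control array, at 4.19 ± 0.11, or 2.81 under normexp. Nfkbia, which encodes the NF-kB inhibitor IkB alpha, had 33240 with LPS and 5148 in control cells, at 2.74 ± 0.03. Tnfaip3 (A20) and Nfkbiz (IkB zeta) stood at 2.10 and 1.42. Zfp36 and Zfp36l2, which encode proteins that bind AU-rich transcripts, were lowest at -0.13 ± 0.14 and -0.11 ± 0.03. Of 19 transcription factor genes 15 were measured, with a median of 0.31. Beside the same shares of all measured genes, 2 of the 15 were at least 2-fold higher and none lower. Cebpd had 31933 on the LPS array and 6167 on the control array, at 2.42 ± 0.03. The NF-kB subunit gene Relb was at 1.27 ± 0.05, with its other probes at 1.25 and -0.04. The AP-1 genes Jun and Fos were lowest at -0.65 ± 0.04 and -0.54 ± 0.04.

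**Figure D4:**
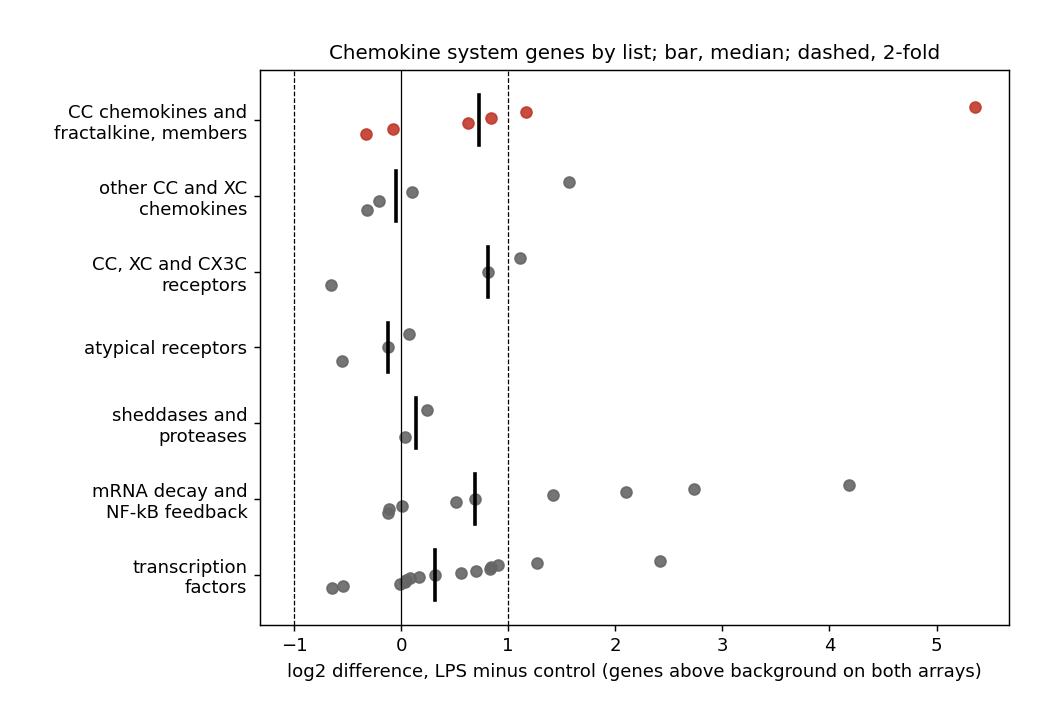
Difference in log2 signal, LPS minus control, of each gene measured on both arrays, by gene list, with a bar at the list's median and dashed lines at 2-fold in each direction. The 6 chemokine members run from -0.33 to 5.36 with a median of 0.73, and the 4 other CC and XC chemokines have a median of -0.05.

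The 250 bases before the start of each gene were read for motifs where RefSeq gave a promoter, which it did for 7 of the 10 members. It gave none for Ccl2, Ccl7 and Ccl5, so the members that differed most were not read. Shown are the promoters of Cx3cl1, which was past 2-fold, of the neighbours Ccl9 and Ccl6, which had opposite signs, and of Ccl20, which was not detected. They come from RefSeq on GRCm38.p6, a different build from the probe positions, and capitals mark matches on either strand to the NF-kB consensus, to the AP-1 motif TGANTCA or to the TATA box TATAAA. The Cx3cl1 promoter is chr8:94771930-94772179 on the plus strand, Ccl9 is chr11:83578637-83578886 and Ccl6 chr11:83593088-83593337, both on the minus strand, and Ccl20 is chr1:83116516-83116765 on the plus strand.
Cx3cl1: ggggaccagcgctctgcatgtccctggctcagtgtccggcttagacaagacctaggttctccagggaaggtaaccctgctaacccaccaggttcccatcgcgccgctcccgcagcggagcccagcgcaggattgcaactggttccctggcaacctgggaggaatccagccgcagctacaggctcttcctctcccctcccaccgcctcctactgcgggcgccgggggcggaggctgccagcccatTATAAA
Ccl9: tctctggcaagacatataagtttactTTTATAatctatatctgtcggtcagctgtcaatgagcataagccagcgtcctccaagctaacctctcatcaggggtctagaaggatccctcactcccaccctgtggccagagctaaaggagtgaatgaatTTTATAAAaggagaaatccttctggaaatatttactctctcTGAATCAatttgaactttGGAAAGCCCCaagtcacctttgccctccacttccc
Ccl6: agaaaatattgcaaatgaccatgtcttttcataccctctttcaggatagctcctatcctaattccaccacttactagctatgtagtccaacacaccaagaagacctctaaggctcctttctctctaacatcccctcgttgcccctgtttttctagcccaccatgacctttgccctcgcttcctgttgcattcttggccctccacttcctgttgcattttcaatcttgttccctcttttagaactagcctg
Ccl20: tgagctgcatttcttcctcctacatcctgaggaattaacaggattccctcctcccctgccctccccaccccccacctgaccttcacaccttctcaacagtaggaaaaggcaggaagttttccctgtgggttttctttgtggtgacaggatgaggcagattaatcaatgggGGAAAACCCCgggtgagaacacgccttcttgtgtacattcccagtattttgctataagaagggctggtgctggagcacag

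Cx3cl1 had a TATA box match at -6 to -1 from its start. Ccl9 had an NF-kB match at -35 to -26 and an AP-1 match at -53 to -47, with TATA box matches on the minus strand at -224 to -219 and -94 to -89 and 1 on the plus strand at -92 to -87 that overlaps the last. Ccl6 held none of the 3 motifs in this window. Ccl20 had an NF-kB match at -80 to -71. Among the members not shown, 1 of the 2 Ccl25 promoters had a TATA box match at -16 to -11, and Ccl17 and Ccl28 had no match. Over 32851 RefSeq promoters of the same length, 7.25% held the NF-kB consensus, 6.75% the AP-1 motif and 12.4% the TATA box. A match describes letters in this window and is not a measured binding site.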

How the data were processed

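The authors deposited 1 one-colour (Cy3) scan for each of the 2 samples, with spot intensity values that the file headers credit to Agilent Feature Extraction 10.10.1.1, and the groups were taken from the sample titles. Per the file headers, the processed intensity has had background and a spatial trend removed, and the mean, local background and background-subtracted intensity stand beside it. Cells were lysed in Trizol and RNA was labelled with T7 RNA polymerase, per the labels' protocols. The deposited flags for "well above background" and "positive and significant" were used as given.

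Control spots and the 223 spots flagged as outliers were left out. From log2 of the processed intensity the 75th percentile of each array was subtracted, spots of a probe were averaged, and a gene took its brightest probe. A gene counted as not above background only where none of its probes was above it. Where a probe was above background on 1 array only, a bound was taken, the brighter array over the higher of the other array's lowest signal well above background and the probe's own signal. Errors are the median SD over spots of the 40 replicated probes nearest in brightness, and for Ccl2 the SD over its own 10 spots. Of 399 probes printed 10 times, 250 were above background and had an SD, with a median of 0.05. With 1 array per group nothing was tested, genes were described at 2-fold, and precision is limited by the number of arrays. Accessions of 28020 probes were found in RefSeq's gene table (GRCm38.p6), whose symbols replaced older ones. Probe positions are mm9, as in the deposited files, and their place within transcripts was not analysed here.

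The genes, the lists around them and the rule for naming were chosen with earlier results of these data known. The rule names all 10 genes by every probe, the 2 highest and 2 lowest measured genes of each other list, genes of a list with a bound of at least 2-fold, the receptors of the 10 and the chemokine genes of their clusters. Some genes on the lists are counted but not reported here by name. Other genes and probes named (Tnfaip3, Nfkbiz, Adgre1, Itgax, Csf1r, Pdgfra, the long non-coding interval on chromosome 8 and the undetected genes of each list) were added after their values were seen. The alternatives were quantile normalization, cyclic loess (span 0.7), centring on the median, normexp (offset 50), background-subtracted signal with a floor of 1, the percentile over detected probes, the median over probes, a looser flag, no filter, and 1.5-fold and 4-fold. Python 3.11.15 with numpy 2.4.6, pandas 2.3.3 and matplotlib 3.10.9, and R 4.3.3 with limma 3.58.1, were used.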

Additional observations from a re-analysis of the deposited data

How the results depend on the processing

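No paired analysis was possible because each group has 1 array. No chemokine member measured on both arrays changed sign under any of the 11 alternatives. The looser flag, no filter, the 1.5-fold and 4-fold thresholds and, for members, the median over probes leave a probe's difference unchanged. Only the remaining alternatives could have changed a member's sign. Among the other listed genes with values close to 0, Adam10, Ccrl2, Rela, Sp1 and Elavl1 changed sign under at least 1. Of the counts and medians recomputed, 240 stayed close to the reported value and 42 moved, and those that moved are given here. With normexp, 1 member was at least 2-fold higher, the median of the measured members was 0.46, no receptor (0) was higher, and 170 genes in all (0.835%) were higher and 37 lower. Normexp also gave the lowest values of Ccl2 (4.79), Ccl9 (0.73), Cx3cl1 (0.81), Ccl5 (0.20) and the bounds of Ccl7 (1.38) and Ccl17 (0.30), all on the log2 scale. With the looser background flag the median of the members was 0.84, 1 receptor, 1 atypical receptor and 1 leukocyte marker were at least 2-fold lower, 1 leukocyte marker was higher, and 747 genes (3.03%) were higher and 555 lower. With no background filter, 3 other CC and XC chemokines and 2 receptors were higher, 1 receptor, 1 atypical receptor, 2 leukocyte markers and 1 stromal marker were lower, 1 leukocyte marker was higher, and 1362 genes (3.92%) were higher and 1178 lower. At 1.5-fold, 4 members, 2 receptors, 6 transcription factors and 1 stromal marker were higher, 1 receptor, 1 transcription factor and 3 epithelial markers were lower, and 731 genes (3.59%) were higher and 541 lower. At 4-fold, 1 member and 1 transcription factor were higher, 0 other chemokines, 0 receptors and 0 epithelial markers passed, and 78 genes (0.383%) were higher and 17 lower. These last counts follow from the thresholds; for normexp and the filters the cause was not tested. Genes near the lowest signal well above background, Ccl5 and Ccl17 among them, are limited by their brightness.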
